A study of Mus musculus with 6 samples.

Results

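The 33 genes described here are the tumour suppressor gene Trp53, a set of its known target genes and the BCL2 family of cell death regulators. They were listed by symbol, all 33 were found among the 55471 gene identifiers of the count tables, and all 33 passed the filter on low counts that left 15091 genes. The RNA came from epiblast stem cells of the mouse, a pluripotent cell type close to the gastrulating epiblast, which had spent 2 days in serum as embryoid bodies (cell aggregates). The Mixl1 induced group held 3 libraries from a line with inducible Mixl1, a homeobox transcription factor gene of the primitive streak, given doxycycline at 1 µg/mL for the last 24 h. The Mixl1 KO group held 3 libraries from cells labelled as Mixl1 knockout. In both groups the cells had been kept on irradiated feeder fibroblasts from mouse embryos, with 10 ng/mL bFGF and 20 ng/mL Activin A in the medium, before 24 h of aggregation in microwells. The labels give neither the promoter that drives the transgene, nor the altered part of the knockout gene, nor the number of clones, nor whether the knockout cells received doxycycline, so line, Mixl1 state and drug cannot be told apart. Whether replicates were separate cultures is not stated either, and the p-values reflect only how far these libraries differ, which may be technical.

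The libraries held 17490426 to 21026423 reads on genes, and log2 fold changes had a median standard error of 0.084. Mixl1 itself averaged 432.5 ± 7.54 CPM in Mixl1 induced libraries and 39.8 ± 2.96 CPM in Mixl1 KO libraries (SD, n = 3 each). Here CPM stands for reads of a gene per 1e6 reads of all tested genes, with TMM-scaled library sizes. In the comparison of Mixl1 induced with Mixl1 KO, 62.6% of tested genes passed an adjusted p of 0.05 (edgeR quasi-likelihood test), 31% higher and 31.6% lower. Of the 8 epiblast markers, 4 were higher and 4 lower. Their summed levels were 1385 to 1412 CPM in Mixl1 induced libraries and 1859 to 1974 CPM in Mixl1 KO libraries. Most of these sums was Pou5f1, 1 of the 4 lower markers. It averaged 807.1 CPM in Mixl1 induced libraries and 1293.8 CPM in Mixl1 KO libraries. All 10 macrophage markers were lower, with sums of 19.1 to 23.9 CPM in Mixl1 induced libraries and 77.2 to 112.4 CPM in Mixl1 KO libraries. Of 11 tested fibroblast markers, 3 were higher and 6 lower, with sums over the 12 listed of 458.2 to 643.9 CPM in Mixl1 induced libraries and 758.3 to 948.8 CPM in Mixl1 KO libraries. No marker of these lists was at 0 in every library, and the part of other cell types in the results below was not tested. In such bulk samples, fewer cells of a type and less RNA per cell cannot be told apart.

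The protein p53 is a transcription factor that DNA damage and other stresses stabilise. It binds a sequence of paired decamers and activates genes that halt the cell cycle, aid repair, adjust metabolism or bring about death, and MDM2 and MDM4 hold it in check. The death branch converges on the BCL2 family: effectors that permeabilise the outer mitochondrial membrane, pro-survival proteins that restrain them, and BH3-only proteins that free or activate the effectors. Pluripotent cells are known to die readily after DNA damage.

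Because many members are bound by p53, the annotated start regions were searched for its consensus decamer, a palindrome that reads alike on both strands. RefSeq promoter windows (GRCm38.p6) of 300 bases, 250 before and 50 after each start, existed for 27 members. A decamer without mismatch lay in 9 of 39 member windows (23.1%), belonging to 8 genes, and in 8.36% of 32851 windows of all genes. The 9 include 2 overlapping Aen windows that hold the same decamer. Many members were listed because they are known p53 targets, so the difference between these shares is no test of the list. The stretches below, 5′ to 3′ on the gene's strand, show each decamer in capitals with 10 bases on either side.
Cdkn1a: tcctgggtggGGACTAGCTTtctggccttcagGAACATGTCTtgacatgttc
Ccng1: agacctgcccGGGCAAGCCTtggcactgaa
Aen: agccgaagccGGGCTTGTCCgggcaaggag
Bax: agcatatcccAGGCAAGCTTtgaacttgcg
Mdm2: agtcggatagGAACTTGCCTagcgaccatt
Trp53: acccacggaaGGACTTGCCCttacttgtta
Sesn1: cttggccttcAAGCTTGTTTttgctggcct
Bmf: cccaagtgaaGGGCTTGCCTcttgccgaat
The Cdkn1a stretch lies at chr17:29090896-29090947 on the plus strand, upstream of the first of 2 RefSeq starts that are 2790 bases apart. Among member windows, only this one held a pair of decamers without mismatch at most 13 bases apart, here 12. That arrangement was found in 0.0731% of all windows. The 10 bases directly after the second Cdkn1a decamer also match the consensus, except at their first base. Decamers with a mismatch were not searched for, so closer pairs that include one were not counted. The other stretches lie at chr11:40755452-40755481 (minus strand, Ccng1), chr7:78895927-78895956 (plus, Aen), chr7:45467080-45467109 (minus, Bax), chr10:117710925-117710954 (minus, Mdm2), chr11:69580274-69580303 (plus, Trp53), chr10:41887256-41887285 (plus, Sesn1) and chr2:118544781-118544810 (minus, Bmf). Of the 8 genes, 3 were higher, 3 lower and 2 did not pass, beside 31% higher and 31.6% lower among all tested genes. A match is a string of letters and not a shown binding site.

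Across all members, 23 of 33 passed the test (69.7%, against 62.6% of all tested genes), 10 higher and 13 lower. Their median log2 fold change, Mixl1 induced over Mixl1 KO throughout, was 0.01, against 0.00 for all tested genes, and the median size regardless of sign was 0.39 against 0.32. The estimate reached 2-fold or more in 4 called members, Plk2, Eda2r, Pmaip1 and Bik, against 16.1% of all tested genes. The ranges of the 2 groups were separate for 26 of 33 members, against 67.1% of all tested genes. These shares lie near the background, and what follows describes single genes within it.

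**Figure D1:**
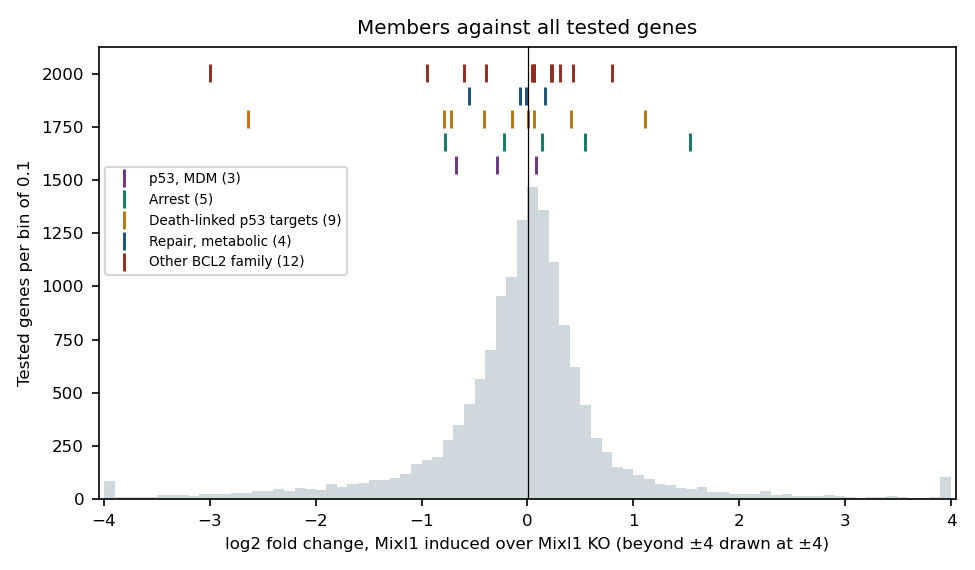
Histogram of log2 fold changes (x axis, Mixl1 induced over Mixl1 KO) of 15091 tested genes, as genes per bin of 0.1 (y axis), with a tick for each of the 33 members in a row per role. The members spread to both sides of the median of all tested genes, drawn as a vertical line, from -3.00 (Bik) to 1.54 (Plk2).

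Trp53 fell modestly. It had 321.8, 328.7 and 358.1 CPM in Mixl1 induced libraries, against 412.8, 408.9 and 411.8 CPM in Mixl1 KO libraries. The groups did not overlap, and the log2 fold change was -0.29 (SE 0.046, edgeR adjusted p = 1.15e-05). Trp53 lies on chromosome 11 from 69580359 to 69591873 (GRCm38, plus strand).

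Mdm4, whose product masks the activation domain of p53, fell more. It had 103.5, 108.0 and 104.1 CPM in Mixl1 induced libraries, against 157.3, 172.5 and 173.2 CPM in Mixl1 KO libraries. That is a 1.59-fold lower level with a log2 fold change of -0.67 (SE 0.049, edgeR adjusted p = 7.81e-11). Mdm2, the ubiquitin ligase gene that is itself a p53 target, had 118.3, 117.8 and 108.8 CPM in Mixl1 induced libraries and 104.5, 113.0 and 108.7 CPM in Mixl1 KO libraries. The groups overlapped, and the Mdm2 difference of 0.08 on the log2 scale did not pass (SE 0.050, edgeR adjusted p = 0.169).

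All 5 members linked to arrest and growth restraint passed, as did 62.6% of all tested genes. That share, 31% higher and 31.6% lower, is the background for each count by role or list below. Of the 5, 3 were higher and 2 lower, from a 2.90-fold higher level for Plk2 to a 1.72-fold lower one for Cdkn1a. Plk2, a polo-like kinase gene, had the largest rise of the 33. It had 157.5, 149.6 and 154.4 CPM in Mixl1 induced libraries, against 54.0, 52.8 and 52.3 CPM in Mixl1 KO libraries. Every Mixl1 induced library lay far above every Mixl1 KO library, at 2.90-fold (log2 fold change 1.54, SE 0.049, edgeR adjusted p = 3.06e-17). Plk2 lies on chromosome 13 from 110395046 to 110400844 (plus strand).

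Cdkn1a, which encodes the cyclin-dependent kinase inhibitor p21 and is the best known arrest target of p53, went the other way. It had 194.2, 215.0 and 207.4 CPM in Mixl1 induced libraries, against 366.0, 350.9 and 341.9 CPM in Mixl1 KO libraries. The level was 1.72-fold lower with no overlap (log2 fold change -0.78, SE 0.048, edgeR adjusted p = 3.38e-12). This is the gene whose start region holds the paired decamers without mismatch above.

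Zmat3, a zinc-finger RNA-binding protein gene, rose, with 176.4, 182.6 and 183.7 CPM in Mixl1 induced libraries and 126.5, 123.7 and 122.5 CPM in Mixl1 KO libraries (log2 fold change 0.54, SE 0.045, edgeR adjusted p = 5.92e-10). Ccng1, the cyclin G1 gene, rose slightly, averaging 324.3 ± 4.62 CPM in Mixl1 induced libraries and 295.8 ± 5.06 CPM in Mixl1 KO libraries (SD, n = 3 each). Its log2 fold change was 0.13 (SE 0.042, edgeR adjusted p = 0.00971). Btg2, an anti-proliferative gene whose product acts in mRNA deadenylation, fell by 0.23 on the log2 scale (SE 0.062, edgeR adjusted p = 0.00309). The median of the 5 log2 fold changes was 0.13.

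**Figure D2:**
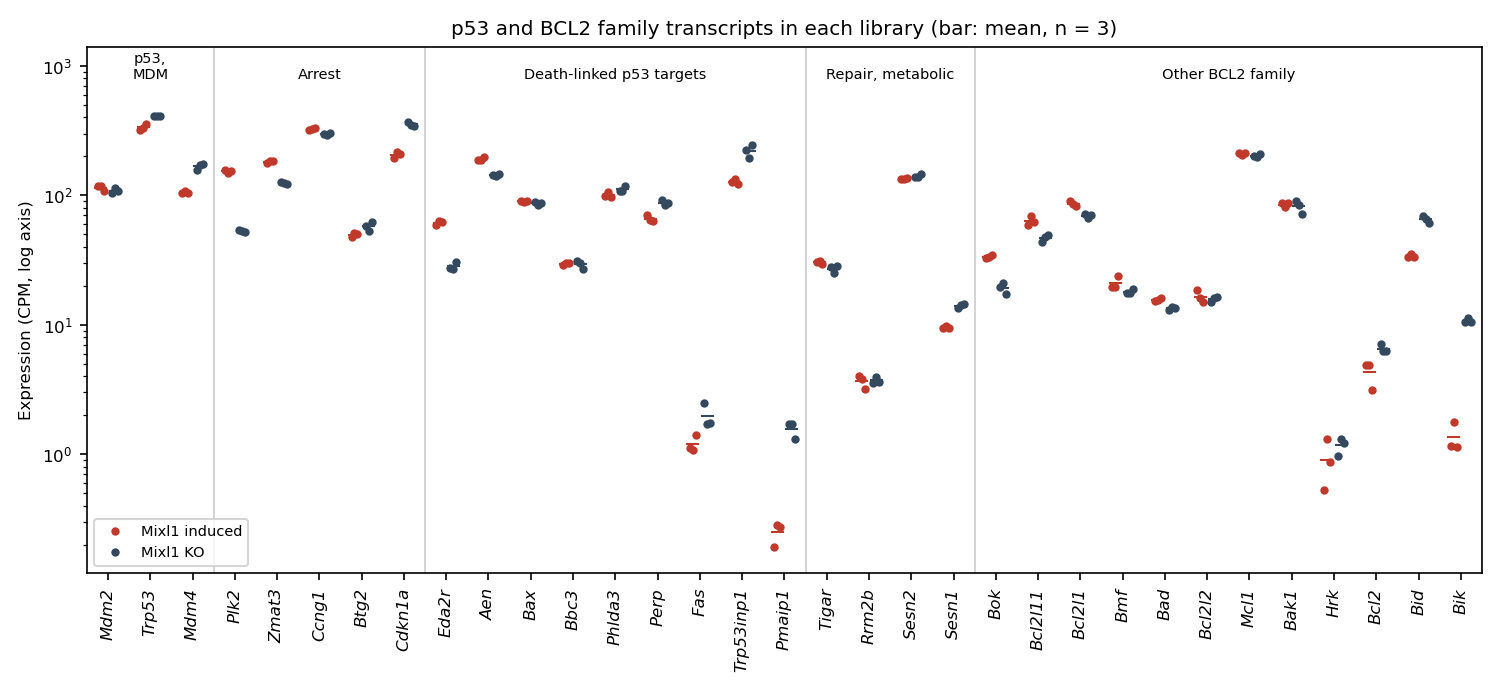
Expression in each library (y axis, CPM, log axis) for the 33 genes grouped by role (x axis), with 3 Mixl1 induced points left of 3 Mixl1 KO points and a bar at each mean. Plk2, Eda2r and Bok stand higher in Mixl1 induced libraries, and Cdkn1a, Trp53inp1, Pmaip1, Bid and Bik stand lower, with no overlap between groups. The groups were separate for 26 of the 33 genes in all, against 67.1% of all tested genes.

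Of the 9 p53 targets linked to death, 2 rose, 5 fell and 2 did not pass, with a median log2 fold change of -0.15. Among the receptors, Eda2r rose and Fas fell. Eda2r, a TNF receptor family gene on chromosome X (97333840 to 97377216, minus strand), had 58.6, 63.3 and 62.5 CPM in Mixl1 induced libraries, against 27.6, 27.1 and 30.7 CPM in Mixl1 KO libraries. All Mixl1 induced libraries were higher, at 2.16-fold (log2 fold change 1.11, SE 0.064, edgeR adjusted p = 1.27e-12). Fas, the death receptor gene, was near the lower end of detection with 23, 19 and 26 reads in Mixl1 induced libraries and 51, 31 and 33 reads in Mixl1 KO libraries. Its log2 fold change was -0.72 (SE 0.25, edgeR adjusted p = 0.0158), and this call was lost without Mixl1 induced replicate 1 (adjusted p = 0.0577) or 2 (0.0552) or Mixl1 KO replicate 1 (0.120).

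Trp53inp1, a stress protein gene whose product modulates p53 and autophagy, fell. It had 127.2, 133.6 and 121.8 CPM in Mixl1 induced libraries, against 223.5, 194.0 and 245.0 CPM in Mixl1 KO libraries. The Mixl1 KO libraries varied more among themselves, and the groups stayed apart (log2 fold change -0.79, SE 0.071, edgeR adjusted p = 3.07e-07). Perp, a tetraspan membrane protein gene that also serves desmosomes, fell with 70.5, 64.8 and 63.1 CPM in Mixl1 induced libraries and 92.8, 83.7 and 87.4 CPM in Mixl1 KO libraries (log2 fold change -0.41, SE 0.056, edgeR adjusted p = 1.55e-06).

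Aen, an apoptosis-enhancing nuclease gene, rose, with 188.6, 188.6 and 198.8 CPM in Mixl1 induced libraries and 142.7, 141.9 and 147.3 CPM in Mixl1 KO libraries (log2 fold change 0.42, SE 0.045, edgeR adjusted p = 4.97e-08). Phlda3, a repressor of AKT signalling, fell by 0.15 on the log2 scale (SE 0.052, edgeR adjusted p = 0.0184). That call was lost without Mixl1 induced replicate 1 (adjusted p = 0.0699) or 3 (0.0609) or without Mixl1 KO replicate 3 (0.0975).

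The 3 death-linked p53 targets that belong to the BCL2 family differed from each other. Pmaip1, which encodes NOXA, fell at a very low level, with 4, 5 and 5 reads in Mixl1 induced libraries and 35, 31 and 25 reads in Mixl1 KO libraries. The log2 fold change was -2.64 (SE 0.35, edgeR adjusted p = 1.06e-06), with no overlap between groups. Bbc3, which encodes PUMA, had 29.0, 29.8 and 30.1 CPM in Mixl1 induced libraries and 31.3, 29.8 and 27.2 CPM in Mixl1 KO libraries, a log2 fold change of 0.01 that did not pass (SE 0.071, edgeR adjusted p = 0.929). Bax, the effector gene, had 90.6, 89.1 and 91.2 CPM in Mixl1 induced libraries and 88.5, 83.8 and 87.7 CPM in Mixl1 KO libraries. Its groups did not overlap, yet the difference of 0.06 on the log2 scale did not pass (SE 0.049, edgeR adjusted p = 0.304). Exons of Gm45808 on the same strand cover 12.2% of the Bax exon bases, where reads count for neither gene. This also bears on the effector sum below.

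Of the 4 repair and metabolic members, 1 fell and 3 did not pass, with a median log2 fold change of -0.04. Sesn1, a sestrin gene whose product restrains mTORC1 signalling, fell, with 9.45, 9.83 and 9.45 CPM in Mixl1 induced libraries and 13.5, 14.3 and 14.4 CPM in Mixl1 KO libraries (log2 fold change -0.55, SE 0.098, edgeR adjusted p = 3.99e-05). Its paralogue Sesn2 averaged 134.3 ± 1.73 CPM in Mixl1 induced libraries and 140.8 ± 4.53 CPM in Mixl1 KO libraries (SD, n = 3 each; log2 fold change -0.07, edgeR adjusted p = 0.201). Rrm2b, the p53-inducible ribonucleotide reductase subunit gene, had 83, 67 and 58 reads in Mixl1 induced libraries and 73, 72 and 69 reads in Mixl1 KO libraries (log2 fold change -0.02, SE 0.16). Tigar, a fructose bisphosphatase gene that diverts sugar from glycolysis, lay just outside the threshold. It had 30.8, 30.9 and 29.6 CPM in Mixl1 induced libraries and 28.0, 25.0 and 28.5 CPM in Mixl1 KO libraries (log2 fold change 0.16, SE 0.071, edgeR adjusted p = 0.0519), and it passed without Mixl1 KO replicate 3 (adjusted p = 0.0300). No test compared the roles with each other.

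**Figure D3:**
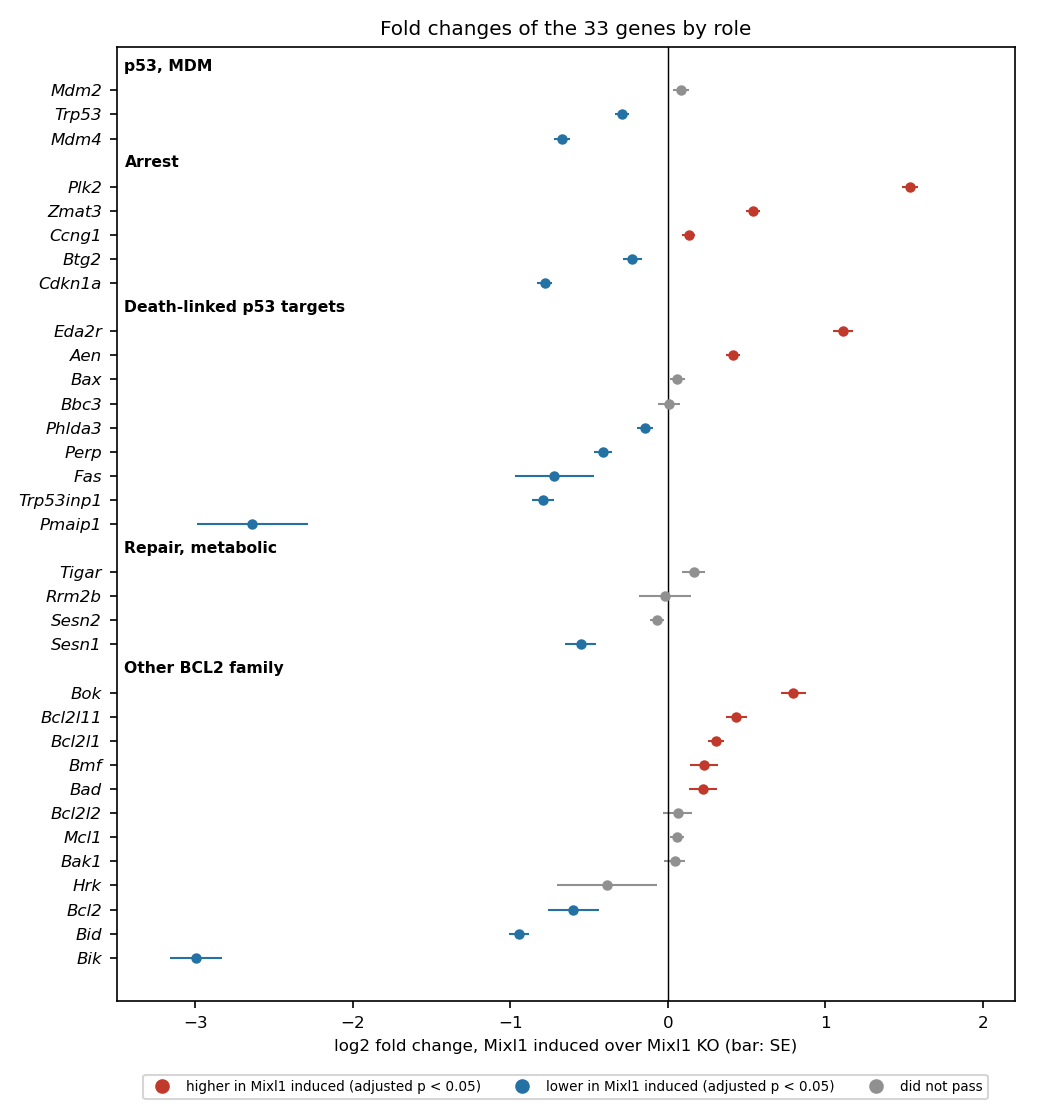
Log2 fold changes (x axis, Mixl1 induced over Mixl1 KO, with standard errors) of the 33 genes, ordered within each role (y axis) and coloured by direction and test. Arrest genes spread from -0.78 (Cdkn1a) to 1.54 (Plk2), death-linked p53 targets from -2.64 (Pmaip1) to 1.11 (Eda2r), repair and metabolic genes from -0.55 (Sesn1) to 0.16 (Tigar).

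The 3 largest falls among the 33 genes, those of Bik, Pmaip1 and Bid, were all in BH3-only genes of the BCL2 family. Of 8 BH3-only genes tested, 3 rose, 3 fell and 2 did not pass, with a median log2 fold change of -0.19. Bik, which encodes a BH3-only protein of the endoplasmic reticulum, had the largest change of all 33 genes. It had 24, 31 and 21 reads in Mixl1 induced libraries, against 216, 206 and 199 reads in Mixl1 KO libraries. That is 1.36 ± 0.358 CPM in Mixl1 induced libraries and 10.8 ± 0.490 CPM in Mixl1 KO libraries (SD, n = 3 each), 7.98-fold lower, with a log2 fold change of -3.00 (SE 0.17, edgeR adjusted p = 7.09e-13). Bik lies on chromosome 15 from 83526862 to 83544634 (plus strand).

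Bid, which links death receptors to mitochondria once caspase-8 has cleaved its product, fell as well. It had 33.4, 35.2 and 33.4 CPM in Mixl1 induced libraries, against 69.3, 65.5 and 61.4 CPM in Mixl1 KO libraries. The level was 1.93-fold lower with no overlap (log2 fold change -0.95, SE 0.061, edgeR adjusted p = 8.93e-12). Exons of Bcl2l13 on the opposite strand cover 17.7% of the Bid exon bases, and reads on that strand made up 20.3% of stranded Bid reads in Mixl1 induced libraries and 10.6% in Mixl1 KO libraries. These reads were kept out of the values given.

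Bcl2l11, which encodes BIM, rose, with 58.6, 69.4 and 62.2 CPM in Mixl1 induced libraries and 43.7, 48.1 and 49.1 CPM in Mixl1 KO libraries (log2 fold change 0.43, SE 0.066, edgeR adjusted p = 6.87e-06). Bmf and Bad, which encode BH3-only proteins that bind pro-survival partners, rose slightly, by 0.23 and 0.22 on the log2 scale (edgeR adjusted p = 0.0307 and 0.0340). The Bmf call was lost without Mixl1 induced replicate 3 (adjusted p = 0.262) and without Mixl1 KO replicate 1 (0.0928) or 2 (0.0715), and the Bad call with any 1 of the 6 libraries left out (adjusted p 0.0503 to 0.112). Hrk, known from dying neurons, had 11, 23 and 16 reads in Mixl1 induced libraries and 20, 24 and 23 reads in Mixl1 KO libraries and did not pass (log2 fold change -0.39, SE 0.32).

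Of the 3 effector genes, only Bok passed. Bok, which encodes an effector known to act with little control by the other family members, had 32.7, 33.3 and 34.8 CPM in Mixl1 induced libraries, against 19.6, 21.1 and 17.3 CPM in Mixl1 KO libraries. All Mixl1 induced libraries were higher, at 1.74-fold (log2 fold change 0.80, SE 0.078, edgeR adjusted p = 9.76e-09). Bak1, the partner of Bax at the mitochondrial membrane, had 86.7, 80.6 and 86.6 CPM in Mixl1 induced libraries and 90.3, 83.7 and 72.3 CPM in Mixl1 KO libraries, overlapping ranges (log2 fold change 0.04, SE 0.066).

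Among the 4 pro-survival genes, Bcl2l1 rose and Bcl2 fell. Bcl2l1, which encodes BCL-XL, had 90.3, 85.6 and 82.9 CPM in Mixl1 induced libraries, against 71.8, 67.1 and 70.6 CPM in Mixl1 KO libraries (log2 fold change 0.31, SE 0.053, edgeR adjusted p = 2.92e-05). Bcl2, the founding member, had 102, 86 and 57 reads in Mixl1 induced libraries and 146, 114 and 119 reads in Mixl1 KO libraries (log2 fold change -0.60, SE 0.16, edgeR adjusted p = 0.00261). Mcl1, a short-lived pro-survival protein gene, had the most counts of the 4, with 210.2 ± 4.47 CPM in Mixl1 induced libraries and 202.1 ± 4.35 CPM in Mixl1 KO libraries (SD, n = 3 each), a log2 fold change of 0.06 that did not pass (edgeR adjusted p = 0.267). Bcl2l2, which encodes BCL-W, averaged 16.5 ± 1.84 CPM in Mixl1 induced libraries and 15.9 ± 0.675 CPM in Mixl1 KO libraries and did not pass (log2 fold change 0.06, SE 0.094). The predicted gene Gm20521 shares 13.3% of the Bcl2l2 exon bases on the same strand, where reads count for neither gene.

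Levels were compared between genes as CPM per kilobase of annotated exon, with all exons of a gene joined. The order depends on this length. As CPM alone, Trp53 averaged 336.2 and Ccng1 324.3 in Mixl1 induced libraries. In Mixl1 induced libraries, Ccng1 was highest of the 33 with 92.3 ± 1.32, followed by Trp53 with 83.1 ± 4.78. In Mixl1 KO libraries, Trp53 with 101.6 ± 0.509 and Cdkn1a with 99.3 ± 3.43 did not differ beyond their spread (CPM per kilobase, SD, n = 3). Cdkn1a ranked 5 of 33 in Mixl1 induced libraries and 2 in Mixl1 KO libraries, and Plk2 ranked 9 in Mixl1 induced libraries and 17 in Mixl1 KO libraries. Mcl1, at 61.5 ± 1.31 in Mixl1 induced libraries and 59.1 ± 1.27 in Mixl1 KO libraries, was the most abundant pro-survival transcript in both groups. Bcl2 was the least abundant, at 0.471 ± 0.114 in Mixl1 induced libraries and 0.716 ± 0.0536 in Mixl1 KO libraries (CPM per kilobase, SD, n = 3 each).

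Summed by class, pro-survival transcripts reached 86.1, 82.9 and 84.5 CPM per kilobase in Mixl1 induced libraries, against 78.4, 77.1 and 80.3 in Mixl1 KO libraries. Effector transcripts reached 111.3, 108.1 and 112.7 CPM per kilobase in Mixl1 induced libraries, against 104.4, 99.4 and 95.1 in Mixl1 KO libraries. BH3-only transcripts reached 40.9, 43.8 and 43.1 CPM per kilobase in Mixl1 induced libraries, against 55.6, 55.1 and 52.3 in Mixl1 KO libraries. The groups did not overlap for any of the 3 sums. The BH3-only sum was lower in Mixl1 induced libraries and the others higher. Each gene's weight in these sums depends on its exon length. Without division by length, pro-survival sums were 312.1 to 324.8 CPM in Mixl1 induced and 288.4 to 300.3 CPM in Mixl1 KO libraries. Effector sums were 203.0 to 212.6 CPM in Mixl1 induced and 177.3 to 198.5 CPM in Mixl1 KO libraries. BH3-only sums were 157.6 to 172.9 CPM in Mixl1 induced and 182.8 to 188.9 CPM in Mixl1 KO libraries. Ranges were also separate for 67.1% of all tested genes. Within the effector sum, Bok averaged 18.2 CPM per kilobase in Mixl1 induced libraries and 10.5 in Mixl1 KO libraries. Bax and Bak1 did not pass. Within the pro-survival sum, Bcl2l1 averaged 18.8 in Mixl1 induced libraries and 15.2 in Mixl1 KO libraries. Mcl1 and Bcl2l2 did not pass, and Bcl2 fell. Bid and Bik had the largest differences within the BH3-only sum, at -8.85 and -5.93 CPM per kilobase (Mixl1 induced minus Mixl1 KO), and Bcl2l11 differed by 2.05 in the other direction. The ratio of pro-survival to effector sums was 0.763 ± 0.0129 in Mixl1 induced libraries and 0.791 ± 0.0482 in Mixl1 KO libraries (SD, n = 3 each), with overlapping libraries. No p is given for sums over chosen genes.

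**Figure D4:**
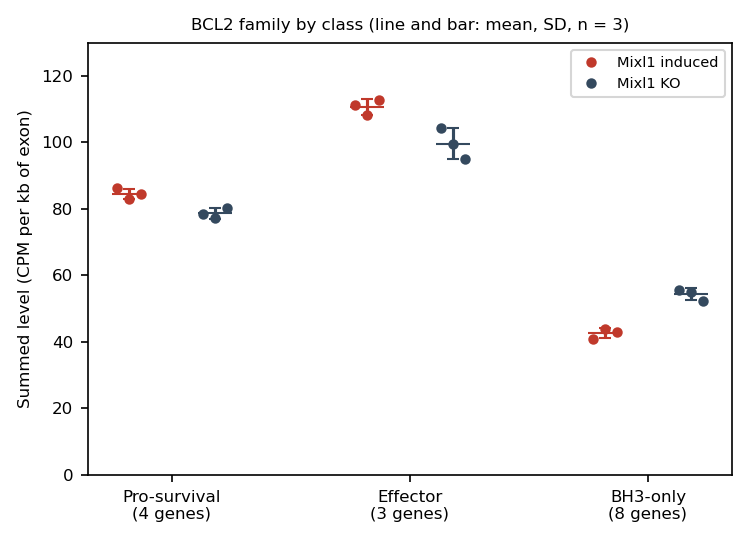
Summed level of each BCL2 family class (y axis, CPM per kilobase of exon, from 0) in each library, Mixl1 induced left of Mixl1 KO, with mean and SD. The BH3-only sum averaged 42.6 in Mixl1 induced libraries and 54.3 in Mixl1 KO libraries, and the effector sum 110.7 in Mixl1 induced libraries and 99.6 in Mixl1 KO libraries.

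Genes of the pathway outside the 33 also went both ways, as did all tested genes (31% higher and 31.6% lower). Of 9 p53-linked repair genes, 3 rose and 4 fell, with a median log2 fold change of 0.04. The nuclease gene Ercc5 (0.52) rose, and the stress gene Gadd45a (-0.53) and the damage sensor gene Ddb2 (-0.58) fell. Of 15 further p53 targets, 5 rose and 4 fell, with a median of 0.11. The TRAIL receptor gene Tnfrsf10b (0.69) and the mitotic genes Ckap2 (0.52) and Psrc1 (0.42) rose, while the phosphatase gene Ptprv (-1.0) fell.

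Of 16 tested regulators of p53, 7 rose and 6 fell, with a median of -0.05. The kinase gene Hipk2 (0.99), the p53 and MDM2 partner gene Daxx (0.71) and the deubiquitinase gene Usp7 (0.37) rose, and Ppp1r13b (-0.64), a cofactor that steers p53 to death genes, fell. Trp63 was listed and not tested. Of 18 genes of the caspase machinery, 8 rose and 5 fell, with a median of 0.08. The inhibitor gene Birc2 (-1.06) fell, and the mitochondrial protease gene Htra2 (0.56) rose. Of 5 tested other BCL2 relatives, Bcl2l13 (0.33), Bcl2l12 (0.30) and Bcl2l14 (1.88, at under 1 CPM in either group) rose and Bnip3 (-0.72) fell, while 6 were not tested. The values in brackets are log2 fold changes, and each gene named with one had an edgeR adjusted p of 0.00463 or less.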

How the data were processed

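The authors deposited, for each of 6 libraries, a table of raw read counts per gene. The kit was a stranded mRNA kit, per the labels' protocols. The genome was mm10 and the tools were STAR, bcl2fastq and DESeq2, per the submitters' processing notes. Tool versions and the annotation release were not given in the sources used here. Counts on the strand opposite to the first read were used, which held 96.2% to 96.3% of stranded gene reads. Lines naming no gene (15.1% to 17.6% of reads, multimapped ones included) were left out. The authors also deposited a DESeq2 table: per the file headers, its columns are the mean normalised count as a signal, the log2 fold change with its error, the Wald score, p-values and the −log10 of the adjusted p.

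Symbols, positions and exon lengths came from GENCODE M21 (GRCm38), matching 55230 of 55471 identifiers. Counts were tested with edgeR 4.0.16 (R 4.3.3): filterByExpr, TMM, robust quasi-likelihood fit on group alone, two-sided, Benjamini-Hochberg over all 15091 tested genes, threshold 0.05. The standard error is the log2 fold change over the square root of F. The procedure was tested on simulated data. Alternatives were other scalings, filters, unstranded counts, a replicate term, DESeq2 1.42.0, a test against a 1.5-fold change and leaving out each library. All 33 members are named; of the other lists, up to 4 called genes with the smallest p, except a few not reported here (list counts include them). Members, roles and lists were chosen with earlier results of these data known.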

Additional observations from a re-analysis of the deposited data

How the results depend on the processing

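Of 23 called members, 19 passed under all 13 alternatives other than the test against a 1.5-fold change, and none of the 23 changed sign. The 4 that did not are Bad, Bmf, Fas and Phlda3, and the authors' deposited table, with 19 of 33 below an adjusted p of 0.05, leaves out the same 4. Against a 1.5-fold change, 8 members passed (3 higher, 5 lower), namely Plk2, Eda2r, Bok, Cdkn1a, Trp53inp1, Pmaip1, Bid and Bik. By role this test left 1 arrest gene higher and 1 lower, and 1 death-linked p53 target higher and 2 lower. It left 0 repair and metabolic genes lower. Of the BCL2 family, counting its death-linked p53 targets, the test left 1 gene higher and 3 lower. Over all genes it left 1160 higher and 1670 lower. BCL2 family genes called higher numbered 5 in the reported fit, 3 with the DESeq2 test and 3 to 4 with 1 library left out. Death-linked p53 targets called lower numbered 3 to 5 with 1 library left out, and repair genes called higher 0 to 1.

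With 1 library left out, the log2 fold change of 4 members that did not pass changed sign: Bbc3 ranged from -0.048 to 0.048, Rrm2b from -0.088 to 0.072, Bcl2l2 from -0.033 to 0.124 and Bak1 from -0.042 to 0.110. Same-numbered libraries of the groups did not deviate together (r from -0.003 to 0.046 over genes, 3 pairs). Differently numbered libraries gave r from -0.103 to 0.064 (6 pairs). The labels do not say whether equal numbers mark a pair, and these values cannot settle it. With the replicate block, Tigar passed (log2 fold change 0.16, edgeR adjusted p = 0.0496), making 1 repair gene higher. Depth limits Fas, Hrk, Pmaip1 and Rrm2b, with under 100 reads in every library.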
